A study of Mus musculus with 15 samples.

Results

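The 10 genes described here, Pecam1, Cdh5, Kdr, Flt1, Tek, Tie1, Vwf, Eng, Erg and Emcn, mark blood vascular endothelium, the single cell layer that lines arteries, capillaries and veins. They were chosen by name, with earlier results of these data known, and all 10 were found among the 34714 genes of the deposited table. RNA of whole mouse aorta was sequenced in 15 libraries, 5 in each of 3 groups. AngII + RvE1 mice received angiotensin II, a vasoconstrictor peptide that raises blood pressure, infused at 750 ng/kg/min, together with resolvin E1 (RvE1), a lipid mediator that takes part in ending inflammation, injected intraperitoneally at 2 µg/kg/day. AngII mice received the infusion alone, and Sham mice served as the control for it. All mice are labelled WT, and the labels used here give no strain, sex, age or duration of treatment. Whether each library came from a separate animal is not labelled either, and a p-value here covers only the spread from library to library, which may be technical.

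The genes cover several layers of endothelial identity. Pecam1 (CD31) and Cdh5 (VE-cadherin) encode adhesion proteins of the junctions between endothelial cells. Kdr (VEGFR2) is the main signalling receptor of VEGF-A, and Flt1 (VEGFR1) binds the same ligand tightly but signals weakly and acts largely as a trap. Tek (TIE2) is the receptor of the angiopoietins, and Tie1 is its partner receptor. Eng (endoglin) is a co-receptor for BMP9 and BMP10, Vwf encodes the clotting protein stored in endothelial granules, Emcn encodes the surface sialomucin endomucin, and Erg encodes an ETS family transcription factor that maintains endothelial gene expression. Some are not exclusive to endothelium: Pecam1 and Vwf are also made by megakaryocytes, and Pecam1 by leukocytes. In a piece of whole aorta these genes report the lining of the lumen and also the small vessels of the outer wall and of the attached fat.

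The values are treated as FPKM, that is, scaled to library size and gene length. All 10 genes passed the filter on low values (5 or more libraries at 1 FPKM or above), as did 12603 genes in all. Groups were compared by limma on log2(FPKM + 1) with Benjamini-Hochberg adjustment over those 12603 genes, and a gene is called where its adjusted p is under 0.05. AngII libraries 3, 4 and 5 stood apart: in them 7 lymphocyte markers summed to 685, 227 and 1048 FPKM, against 10.6 and 4.67 in AngII libraries 1 and 2, 6.22 to 8.19 in AngII + RvE1 and 3.10 to 51.9 in Sham. Read depth is not known from such values, and no counting error is attached to them. In bulk tissue, fewer endothelial cells and less RNA per endothelial cell cannot be told apart.

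All 10 genes were well detected in every library. None of the 10 genes fell below 5.05 FPKM in any library, and the 10 together summed to 242 to 417 FPKM in AngII + RvE1, 325 to 438 FPKM in AngII and 170 to 486 FPKM in Sham. Pecam1 was the most abundant in each group, at 97.1 ± 34.4 FPKM in AngII + RvE1, 118 ± 15.3 FPKM in AngII and 91.1 ± 41.5 FPKM in Sham (mean ± SD of 5 libraries, as in all such values here), followed by Eng. Cdh5 and Emcn came next, then Tie1 and Vwf, then Kdr, with Flt1, Tek and Erg at the low end. The order was firm only in places. Pecam1 exceeded Eng in all 5 libraries of each group, whereas Tie1 exceeded Vwf in 2 of 5 AngII + RvE1 libraries, in 4 of 5 AngII libraries and in 3 of 5 Sham libraries. Tek and Erg were also not separated in Sham, where Tek was the higher of the pair in 2 of 5 libraries.

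**Figure D1:**
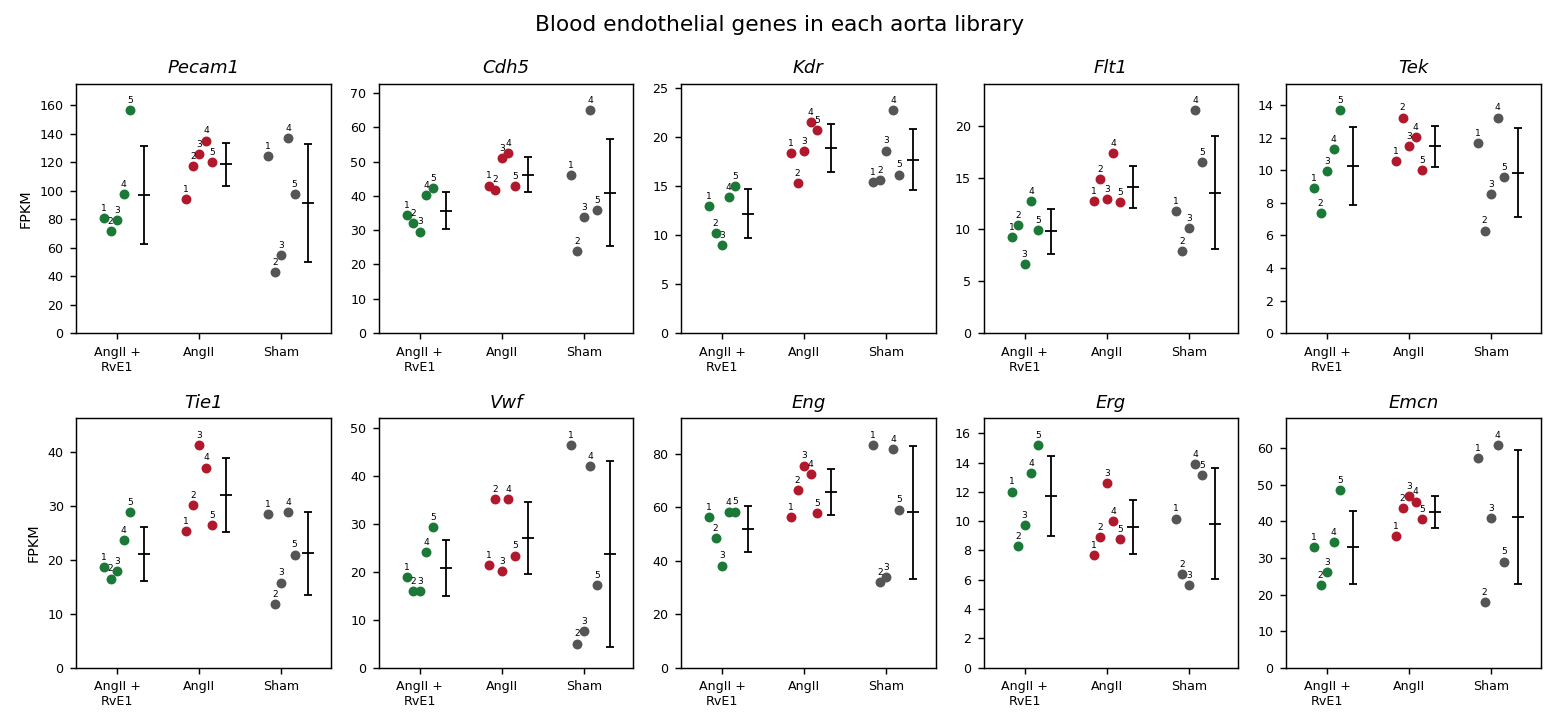
FPKM of each of the 10 genes (vertical axes, from 0) in every library, with points numbered by library and the group mean ± SD (n = 5) drawn beside them as a bar. Sham libraries 1 and 4 lie high and Sham libraries 2 and 3 low for most genes, and Kdr in AngII + RvE1, at 8.97 to 14.96 FPKM, lies below every AngII and every Sham library.

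The widest variation was among Sham libraries rather than between groups. Sham library 2 was the lowest of all 15 for 7 of the 10 genes, and Sham library 4 was the highest of the 5 Sham libraries for 8. Vwf showed this most. It was 46.4, 5.05, 7.64, 42.0 and 17.3 FPKM in Sham libraries 1 to 5, a 9.19-fold range. The same gene spanned 15.9 to 29.4 FPKM in AngII + RvE1 and 20.2 to 35.2 FPKM in AngII. Pecam1 followed the same Sham libraries, at 124, 43.0, 54.5, 137 and 97.4 FPKM. Kdr did not: its Sham values were 15.4, 15.6, 18.6, 22.7 and 16.1 FPKM, and the lowest of them was in Sham library 1. Across the 15 libraries the 10 genes moved together. All 45 pairs had a positive Pearson r on the log2 scale, with a median of 0.74 and a highest value of 0.91 for Pecam1 and Tie1. These correlations describe shared libraries and a shared tissue and carry no test. With the 2 libraries farthest from the median left out (Sham 2 and Sham 4) the median was 0.63, and 44 of the 45 pairs were positive. Against the mean of the other 9 genes, Cdh5 was the closest follower (r = 0.95, Spearman rho = 0.93, 15 libraries), and Kdr and Erg were the loosest (r = 0.48 and 0.57, rho = 0.44 and 0.51). The pair Kdr and Erg had an r of 0.0029 (rho = -0.054), and of 0.45 once the group means were removed.

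**Figure D2:**
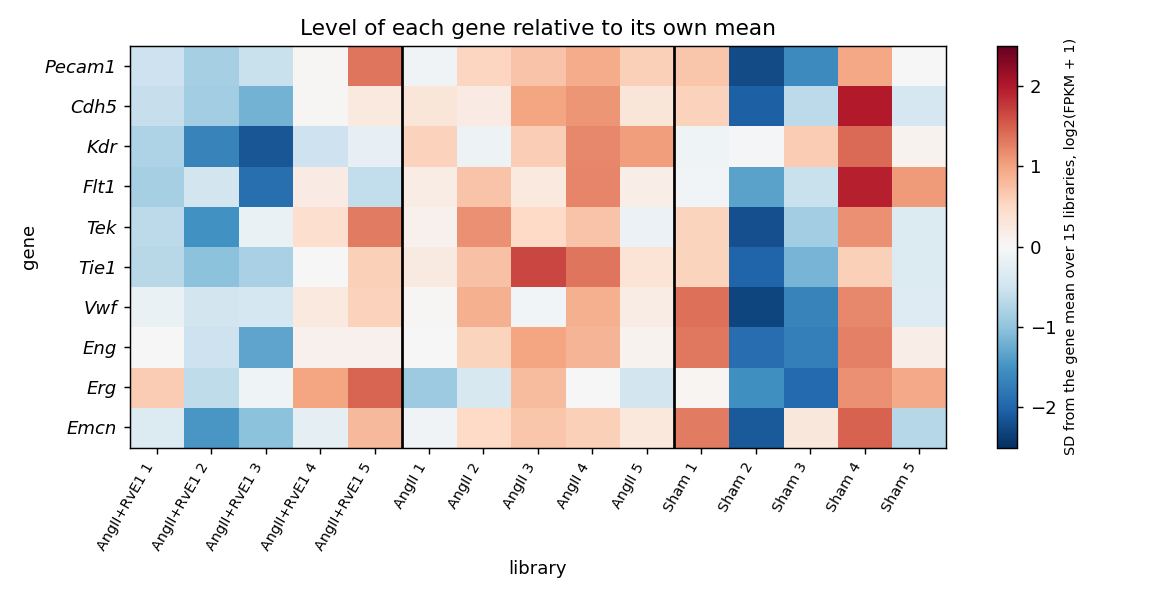
Level of each gene (rows) in each library (columns, grouped as AngII + RvE1, AngII and Sham), as the number of SD from that gene's mean over 15 libraries on the log2(FPKM + 1) scale. Sham library 2 is far below the mean in most rows, Sham library 4 is above it in most rows, and AngII + RvE1 libraries 2 and 3 are mostly below it.

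Of the 8 genes outside the set that followed it most closely, 4 belonged to the endothelial lists described further on (Mmrn2, Ephb4, She and Rasip1). Mmrn2, which encodes the endothelial matrix protein multimerin 2, was nearest to the mean of the 10 genes (r = 0.97, rho = 0.98, 15 libraries), at 13.4 ± 4.23 FPKM in AngII + RvE1, 18.8 ± 2.64 FPKM in AngII and 13.9 ± 7.25 FPKM in Sham. The next were Ephb4, the ephrin-B2 receptor of venous endothelium, Arhgap31, Adcy4, Vsig2, Pkn3, She and Rasip1, the last a regulator of Rap1 signalling in endothelial junctions and lumens. Their r lay between 0.90 and 0.91. None of the 8 was called in any comparison.

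Treatment with angiotensin II alone was compared with Sham to ask what the infusion changed. None of the 10 genes was called in AngII against Sham (limma, adjusted p from 0.117 to 0.957), where 3.17% of all tested genes were called. At an unadjusted p under 0.05 there was 1 of the 10, Tie1, against 26.2% of all tested genes. All 10 differences were positive, with a median of 0.24 on the log2 scale, beside 64.5% positive, 35.5% negative and a median of 0.11 over all tested genes. In none of the 10 were the groups without overlap, where 2.92% of all tested genes were higher and 0.778% lower without overlap. The direction depended on the scaling for a pair of genes. After rescaling the libraries by their median ratio, Kdr and Erg were at -0.02 and -0.08, and the median of the 10 was 0.12. That median was 0.086 without Sham library 2 and 0.38 without Sham library 4.

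Tie1, the partner receptor of TIE2, had the largest difference. It was 25.3, 30.1, 41.2, 37.0 and 26.4 FPKM in AngII, against 28.5, 11.7, 15.8, 28.8 and 20.9 FPKM in Sham. The 3 highest AngII libraries exceeded every Sham library, and the other two lay within the Sham range. The log2 difference was 0.63 (SE 0.23, limma adjusted p = 0.117, 2-sided exact permutation p = 0.0635). Vwf and Pecam1 followed at 0.59 (SE 0.47) and 0.50 (SE 0.30), with limma adjusted p of 0.451 and 0.300, and in both genes the 95% interval of the difference reached below 0. For Kdr and Erg the differences were 0.09 (95% interval -0.23 to 0.41) and 0.03 (-0.46 to 0.51). The remaining 5 genes, Cdh5, Flt1, Tek, Eng and Emcn, lay between 0.12 and 0.28.

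**Figure D3:**
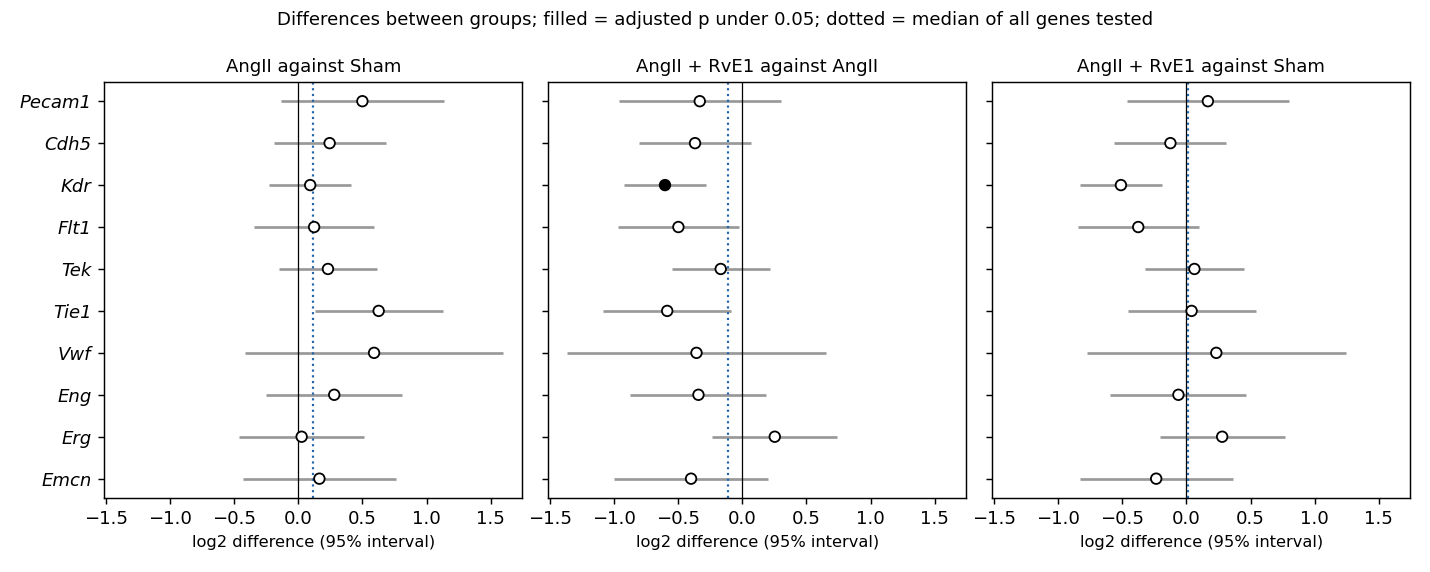
Log2 difference of each gene in the 3 comparisons (horizontal axes), with the 95% interval from limma as a line, called genes as filled points, and the median of all 12603 tested genes as a dotted line. Kdr in AngII + RvE1 against AngII, at -0.60, is the one filled point, and Erg is the one gene to the right of 0 in that comparison.

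Infused mice with and without resolvin E1 were compared to ask what the mediator changed. Kdr fell, 1 call among 10 genes (10% of them, against 8.52% of all tested genes), so the share called was near the background. The same gene was the only one of the 10 whose groups did not overlap, where 5.23% of all tested genes were lower and 5.87% higher without overlap. Of the 10 differences 9 were negative and 1 positive, beside 64.1% and 35.9% of all tested genes, and their median was -0.36, beside -0.11 for all tested genes. At an unadjusted p under 0.05 there were 3 of the 10, Kdr, Flt1 and Tie1, against 29.0% of all tested genes.

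Kdr lies on chromosome 5 from 75932827 to 75979072 and Flt1 on the same chromosome from 147561604 to 147726438, while Tek and Tie1 both lie on chromosome 4, from 94739086 to 94874976 and from 118471191 to 118489849 (mm10, whole genes). The other genes lie on chromosome 11 from 106654213 to 106715281 (Pecam1), chromosome 8 from 104101613 to 104144504 (Cdh5), chromosome 6 from 125552948 to 125686679 (Vwf), chromosome 2 from 32646595 to 32682669 (Eng), chromosome 16 from 95359169 to 95586600 (Erg) and chromosome 3 from 137341062 to 137431069 (Emcn). The 250 bases before a RefSeq transcript start of these 4 receptor genes are shown because the receptors held the largest decreases, in Kdr and Tie1, and the smallest, in Tek, and because ERG, a member of the set, binds the ETS core. Capitals mark AGGAAG or CGGAAG, strings that contain the ETS core GGAA, searched on both strands. GGAA with other flanking letters was not marked.
Kdr, GRCm38.p6 chr5:75978456-75978705, minus strand: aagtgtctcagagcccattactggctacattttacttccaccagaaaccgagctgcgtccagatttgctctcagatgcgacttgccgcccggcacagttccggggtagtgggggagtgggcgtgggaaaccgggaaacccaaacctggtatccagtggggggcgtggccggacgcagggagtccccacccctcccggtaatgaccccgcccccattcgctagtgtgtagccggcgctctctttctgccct
Flt1, GRCm38.p6 chr5:147726012-147726261, minus strand: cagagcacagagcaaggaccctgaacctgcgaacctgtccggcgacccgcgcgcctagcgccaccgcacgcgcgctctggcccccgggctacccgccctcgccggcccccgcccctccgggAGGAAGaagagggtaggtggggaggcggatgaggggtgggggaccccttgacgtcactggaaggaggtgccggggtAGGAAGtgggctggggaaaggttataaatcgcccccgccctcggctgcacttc
Tie1, GRCm38.p6 chr4:118489850-118490099, minus strand: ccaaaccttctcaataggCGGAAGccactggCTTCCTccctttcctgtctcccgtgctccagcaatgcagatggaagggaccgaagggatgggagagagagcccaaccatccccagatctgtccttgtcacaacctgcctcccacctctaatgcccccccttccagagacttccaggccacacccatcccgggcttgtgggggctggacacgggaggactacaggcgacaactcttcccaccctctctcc
Tek, GRCm38.p6 chr4:94739039-94739288, plus strand: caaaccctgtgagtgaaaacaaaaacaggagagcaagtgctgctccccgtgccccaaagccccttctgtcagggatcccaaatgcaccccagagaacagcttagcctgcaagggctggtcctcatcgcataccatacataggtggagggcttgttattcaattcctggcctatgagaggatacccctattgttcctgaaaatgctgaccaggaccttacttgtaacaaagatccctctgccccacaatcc
Flt1 held matches beginning at -129 and -53, counted with -1 as the base just before the start, and Tie1 at -232 and -219. Neither string is in the windows of Kdr and Tek, although both windows hold GGAA itself when both strands are read. RefSeq windows were found for 7 of the 10 genes, and 5 of the 7, Eng, Emcn, Tie1, Flt1 and Erg (in 1 of its 3 windows), held at least 1 match. These 7 genes have 9 windows in all, 3 of them of Erg. Counted by window and not by gene, the same strings occur in 39.2% of all 32851 windows of this length.

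Kdr was 12.9, 10.2, 8.97, 13.8 and 14.96 FPKM in AngII + RvE1, against 18.3, 15.2, 18.5, 21.5 and 20.7 FPKM in AngII. Every AngII + RvE1 library lay below every AngII library, the nearest being 14.96 FPKM in AngII + RvE1 library 5 and 15.2 FPKM in AngII library 2. The log2 difference was -0.60 (SE 0.15, limma adjusted p = 0.0291), a mean 0.646 times that of AngII, and the 2-sided exact permutation p was 0.00794, the smallest that 5 against 5 allows. The call was close to its threshold. Leaving out AngII library 3, 4 or 5, or any single AngII + RvE1 library, gave an adjusted p between 0.0519 and 0.0855 with differences of -0.68 to -0.51. Without AngII libraries 3, 4 and 5 together the difference was -0.45 (adjusted p = 0.426), and AngII libraries 1 and 2 still both exceeded all 5 AngII + RvE1 libraries.

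The second VEGF receptor, Flt1, pointed the same way without being called. Its values were 9.25, 10.4, 6.65, 12.7 and 9.92 FPKM in AngII + RvE1, against 12.7, 14.9, 12.9, 17.4 and 12.6 FPKM in AngII. Only AngII + RvE1 library 4 reached into the AngII range, and the log2 difference was -0.50 (SE 0.22, limma adjusted p = 0.149, 2-sided exact permutation p = 0.0238). Kdr and Flt1 kept a similar ratio to each other. Kdr over Flt1 averaged 1.26 ± 0.222 in AngII + RvE1, 1.35 ± 0.231 in AngII and 1.43 ± 0.456 in Sham.

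The angiopoietin receptors differed from each other more. Tie1 was 18.6, 16.5, 17.9, 23.6 and 28.8 FPKM in AngII + RvE1, below the AngII median in all 5 libraries, for a log2 difference of -0.59 (SE 0.23, adjusted p from limma = 0.117, 2-sided exact permutation p = 0.0317). Tek was 8.93, 7.37, 9.98, 11.3 and 13.7 FPKM in AngII + RvE1, against 10.6, 13.2, 11.5, 12.1 and 10.02 FPKM in AngII. AngII + RvE1 library 5 was the highest of these 10 Tek values, and the log2 difference was -0.17 (95% interval -0.55 to 0.21, adjusted p = 0.570). Tek over Tie1 was 0.447 to 0.558 in AngII + RvE1, 0.279 to 0.439 in AngII and 0.410 to 0.542 in Sham, without overlap between AngII + RvE1 and AngII.

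The junction genes and endoglin were lower in most AngII + RvE1 libraries, without a call. Cdh5 was 34.5, 32.1, 29.5, 40.1 and 42.2 FPKM in AngII + RvE1, against 43.0, 41.8, 50.9, 52.4 and 42.9 FPKM in AngII. The groups met only where AngII + RvE1 library 5 passed AngII library 2, and the log2 difference was -0.37 (SE 0.20, limma adjusted p = 0.247, 2-sided exact permutation p = 0.0159). Pecam1 ranged from 71.7 to 156 FPKM in AngII + RvE1, the highest value of any library, and from 93.9 to 135 FPKM in AngII (-0.33, SE 0.30, adjusted p = 0.489). Eng ranged from 38.1 to 58.3 FPKM in AngII + RvE1 and from 56.3 to 75.5 FPKM in AngII (-0.34, SE 0.25, adjusted p = 0.381). Vwf and Emcn differed by -0.36 and -0.40, with SE of 0.47 and 0.28 (adjusted p = 0.654 and 0.363).

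Erg was the exception in direction. It was 12.02, 8.32, 9.75, 13.3 and 15.2 FPKM in AngII + RvE1, against 7.69, 8.90, 12.6, 9.98 and 8.80 FPKM in AngII. The groups overlapped, and the log2 difference was 0.25 (95% interval -0.24 to 0.74, limma adjusted p = 0.496). Erg over Cdh5 was 0.349, 0.259, 0.330, 0.331 and 0.360 in AngII + RvE1, against 0.179, 0.213, 0.247, 0.190 and 0.205 in AngII and 0.166 to 0.367 in Sham. Every AngII + RvE1 library exceeded every AngII library, while Sham covered both ranges. Of the 9 ratios to Cdh5, this was the only one that did not overlap between AngII + RvE1 and AngII. Kdr over Cdh5 was 0.304 to 0.374 in AngII + RvE1, 0.364 to 0.482 in AngII and 0.334 to 0.657 in Sham. Erg over Kdr averaged 0.962 ± 0.101 in AngII + RvE1, 0.515 ± 0.113 in AngII and 0.560 ± 0.204 in Sham. These ratios were chosen after the values were seen and are given without a test.

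**Figure D4:**
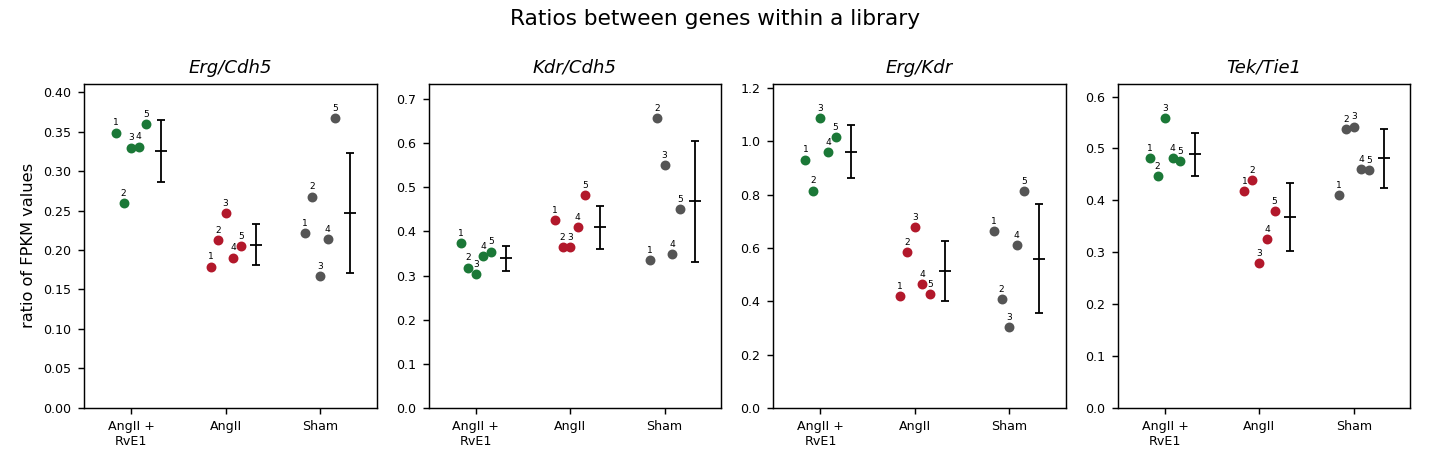
Ratio of FPKM values of 2 genes within each library (vertical axes, from 0), with points numbered by library and group means ± SD (n = 5) as bars. Erg over Cdh5, Erg over Kdr and Tek over Tie1 are higher in every AngII + RvE1 library than in every AngII library, and Kdr over Cdh5 overlaps.

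Other tissue components moved between the same groups. Summed over 9 contractile smooth muscle markers, AngII + RvE1 libraries held 5376 to 9670 FPKM, AngII 1199 to 3392 FPKM and Sham 1750 to 12188 FPKM, and 8 of the 9 were called higher in AngII + RvE1 than in AngII. Summed over 7 adipocyte markers the ranges were 7620 to 13756 FPKM, 13316 to 18912 FPKM and 8235 to 19261 FPKM in AngII + RvE1, AngII and Sham, with 2 of 7 called lower in AngII + RvE1 than in AngII. Fabp4 alone averaged 7520, 9720 and 9359 FPKM in these groups. It was not called in AngII + RvE1 against AngII (limma adjusted p = 0.591). A set of 6 pericyte markers summed to 223 to 328 FPKM in AngII + RvE1, 153 to 175 FPKM in AngII and 173 to 573 FPKM in Sham. Of these 6, 2 were called higher in AngII + RvE1 than in AngII, Cspg4 and Pdgfrb. There 5 differences were positive and 1 negative, Higd1b at -0.11 (limma adjusted p = 0.816). Rgs5 alone averaged 177 FPKM in AngII + RvE1, 109 FPKM in AngII and 211 FPKM in Sham. Macrophage markers (6 genes) summed to 70.6 to 88.7 FPKM, 73.4 to 586 FPKM and 55.7 to 81.2 FPKM, and platelet markers (5 genes) to 31.8 to 86.7 FPKM, 27.5 to 413 FPKM and 24.6 to 139 FPKM, in the same order. Of the 6 macrophage markers 4 were called lower in AngII + RvE1 than in AngII. Their sums in AngII libraries 1 to 5 were 73.4, 145, 586, 182 and 278 FPKM. Over all tested genes, 4.21% were called higher and 4.31% lower in AngII + RvE1 against AngII. In AngII against Sham, 2 smooth muscle markers were called lower, 1 adipocyte and 2 macrophage markers higher, and no pericyte marker. There, 2.36% of all tested genes were called higher and 0.809% lower. No gene was called in any comparison among the markers tested of 6 further lists, which were 6 of 6 fibroblast, 4 of 4 cardiac muscle, 3 of 3 red cell, 4 of 5 platelet, 6 of 7 lymphocyte and 2 of 5 high endothelial venule markers. All 5 high endothelial venule markers summed to 1.88, 0.675, 73.7, 38.8 and 97.4 FPKM in AngII libraries 1 to 5. That sum was 0.552 to 2.07 FPKM in AngII + RvE1 and 1.44 to 16.6 FPKM in Sham. The one marker at 0 in every library of a group was Glycam1, of lymph node high endothelial venules, in AngII + RvE1. The part of these components in the endothelial differences was not tested.

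The comparison of AngII + RvE1 with Sham asks how infused and treated aorta differs from control. No gene of the 10 was called (limma, adjusted p from 0.562 to 0.995), where 0.0238% of all tested genes were called, 0.0159% higher and 0.00793% lower. At an unadjusted p under 0.05 there was 1 of the 10, Kdr, against 6.69% of all tested genes. The signs were divided, 5 positive and 5 negative, beside 53.1% and 46.9% of all tested genes, with a median of -0.01. Kdr in AngII + RvE1, at 8.97 to 14.96 FPKM, lay below all Sham libraries, at 15.4 to 22.7 FPKM, and 0.262% of all tested genes were lower and 0.825% higher without overlap. Its log2 difference was -0.51 (SE 0.15, limma adjusted p = 0.562, 2-sided exact permutation p = 0.00794, the smallest possible). Flt1 differed by -0.38 (SE 0.22, adjusted p = 0.839), and Tie1 and Tek by 0.04 and 0.06. AngII + RvE1 enters this comparison and the previous one, so the Kdr values of the 2 share libraries.

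Genes that act with the 10 were examined as lists chosen by function, with earlier results of these data known. Most of their calls lay close to the threshold. With no filter on low values, none of the 4 calls in AngII against Sham and 3 of the 10 in AngII + RvE1 against AngII were past it (Cyyr1, Tm4sf1 and Cd300lg). In the latter comparison Cyyr1 and Tm4sf1 stayed called whichever single library was left out (limma adjusted p up to 0.0480 and 0.0489). Without AngII libraries 3, 4 and 5 together neither was called (0.331 and 0.0995). In the VEGF pathway list 13 of 14 genes were tested. None was called in AngII against Sham, and 2 fell in AngII + RvE1 against AngII, where 4.31% of all tested genes were called lower and 4.21% higher (543 and 531 genes, and 466 and 800 after rescaling). They were Flt4 (VEGFR3), a VEGF-C receptor most abundant in lymphatic endothelium, and Plcg1, the phospholipase that VEGFR2 activates. Plcg1 was 8.20, 9.48, 6.26, 8.28 and 6.28 FPKM in AngII + RvE1, against 11.5, 10.1, 11.996, 14.1 and 13.5 FPKM in AngII, without overlap (log2 difference -0.61, SE 0.18, limma adjusted p = 0.0481). Flt4 fell by 1.10 (adjusted p = 0.0237), and AngII libraries 3, 4 and 5, at 8.69, 5.20 and 6.74 FPKM, were above AngII libraries 1 and 2, at 3.21 and 3.26 FPKM. The ligand gene Vegfa was 44.0 ± 15.8 FPKM in AngII + RvE1 and 64.4 ± 18.7 FPKM in AngII (-0.58, SE 0.33, adjusted p = 0.263). Pgf, another ligand gene, differed by 0.45 (adjusted p = 0.368) and the co-receptor gene Nrp1 by -0.29 (adjusted p = 0.180).

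The angiopoietin-TIE list held 9 genes, all tested. Svep1, which encodes a matrix protein that binds TIE1, rose in AngII against Sham, at 6.83 ± 1.97 FPKM in AngII and 2.87 ± 0.950 FPKM in Sham (log2 difference 1.03, SE 0.24, limma adjusted p = 0.0364, but 0.0710 with no filter and 0.0957 with AngII and Sham fitted alone), where 2.36% of all tested genes were called higher and 0.809% lower. Dok2, an adaptor of TIE2 that leukocytes also express, fell in AngII + RvE1 against AngII by 1.10 (adjusted p = 0.0470), where 4.31% of all tested genes were called lower. Its highest value, 15.7 FPKM, was in AngII library 3. The ligand gene Angpt2 was 15.1, 10.4, 9.57, 13.4 and 13.8 FPKM in AngII + RvE1, against 5.20, 9.08, 5.94, 7.43 and 4.32 FPKM in AngII and 3.65 to 16.5 FPKM in Sham. All AngII + RvE1 libraries exceeded all AngII libraries, and the log2 difference was 0.88, with SE 0.28 and a limma adjusted p of 0.0619. It was called with these 2 groups fitted alone (adjusted p = 0.0156), after rescaling (0.0354) and with array weights (0.0018), and not in the other 5 settings, leaving aside fits without a single library. Array weights called 4469 of all tested genes in this comparison. Angpt1, the agonist made by mural cells, differed by 0.13 (adjusted p = 0.732), and Ptprb, the phosphatase that restrains TIE2, by -0.38 (0.340).

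In the endoglin and BMP9 list 11 of 13 genes were tested, and Gdf2 and Bmp10, the ligands themselves, were under the filter. Smad6, an inhibitory SMAD, was the 1 gene called, in AngII + RvE1 against AngII, where 8.52% of all tested genes were called. It was 27.8, 9.28, 20.7, 19.1 and 22.2 FPKM in AngII + RvE1, against 13.4, 11.4, 5.61, 9.92 and 6.34 FPKM in AngII (log2 difference 0.996, SE 0.27, limma adjusted p = 0.0400). AngII + RvE1 library 2 lay within the AngII range. Acvrl1, the ALK1 receptor that pairs with endoglin, differed by -0.15 (adjusted p = 0.712).

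Among 17 endothelial transcription factor genes, Hhex rose in AngII against Sham (log2 difference 1.71, SE 0.37, limma adjusted p = 0.0306) and Foxc2 rose in AngII + RvE1 against AngII (1.18, SE 0.31, adjusted p = 0.0340). Each was the only gene of the 17 called in its comparison, where 3.17% and 8.52% of all tested genes were called. With no filter the adjusted p was 0.0623 for Hhex and 0.0697 for Foxc2, and with AngII and Sham fitted alone it was 0.119 for Hhex. Hhex, a homeobox gene of early endothelium that B lymphocytes also express, was 18.6, 7.46 and 20.1 FPKM in AngII libraries 3, 4 and 5, against 4.70 and 4.03 FPKM in AngII libraries 1 and 2. Foxc2, a forkhead gene of lymphatic valves and vessel wall mesenchyme, was 11.7 to 18.6 FPKM in AngII + RvE1 and 4.65 to 8.93 FPKM in AngII. Sox17, a factor of arterial endothelium, differed by -0.21 between AngII + RvE1 and AngII (adjusted p = 0.574).

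Of 25 other pan-endothelial genes, 24 had positive differences in AngII against Sham and 24 had negative ones in AngII + RvE1 against AngII, with medians of 0.41 and -0.40. Over all tested genes 64.5% were positive and 64.1% negative in the same comparisons, with medians of 0.11 and -0.11. Of the 25, 4 were called in AngII + RvE1 against AngII (1 higher and 3 lower, beside 8.52% of all tested genes called) and 1 in AngII against Sham (beside 3.17%). Cyyr1, Adgrl4 and Gpr182 fell in AngII + RvE1 against AngII. Cyyr1 was 2.503, 3.01, 2.42, 3.07 and 2.93 FPKM in AngII + RvE1, against 5.601, 4.71, 6.20, 6.74 and 5.76 FPKM in AngII, without overlap (log2 difference -0.84, SE 0.16, limma adjusted p = 0.0148). Adgrl4 (ELTD1), an adhesion receptor of angiogenic endothelium, fell by 0.73 (adjusted p = 0.0340). Gpr182, an atypical chemokine receptor of lymphatic and sinusoidal endothelium, fell by 1.63 (0.0291). Tm4sf1, which encodes a tetraspanin-like membrane protein of endothelial and mesenchymal cells, went the other way in both comparisons, at 145 ± 45.0 FPKM in AngII + RvE1, 43.2 ± 31.3 FPKM in AngII and 102 ± 32.3 FPKM in Sham. It rose by 1.89 in AngII + RvE1 against AngII (adjusted p = 0.0148) and fell by 1.39 in AngII against Sham (adjusted p = 0.0465). Nos3, the endothelial nitric oxide synthase gene, was 13.7 ± 2.27 FPKM in AngII + RvE1 and 20.9 ± 3.77 FPKM in AngII (-0.57, SE 0.24, adjusted p = 0.126). Nos3 was called with these 2 groups fitted alone (limma adjusted p = 0.0308) and with array weights (0.0027), but in none of the 15 fits without a single library. With array weights 4469 of all tested genes were called. The tight junction gene Cldn5 differed by -0.07 (adjusted p = 0.916).

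Vessel type lists gave these counts. Of 12 capillary and venous genes, 12 had positive differences in AngII against Sham and 11 had negative ones in AngII + RvE1 against AngII (medians 0.42 and -0.59). The shares over all tested genes were 64.5% positive and 64.1% negative in the same comparisons (medians 0.11 and -0.11), with 3.17% and 8.52% called. Cd300lg, a receptor of capillary endothelium, was called in both, at 32.2 ± 5.06 FPKM in AngII + RvE1, 53.7 ± 10.5 FPKM in AngII and 33.8 ± 7.54 FPKM in Sham. It rose by 0.66 in AngII against Sham (limma adjusted p = 0.0496) and fell by 0.71 in AngII + RvE1 against AngII (adjusted p = 0.0259). Of 13 arterial genes none was called, and their medians were 0.03 and 0.27. Their signs were nearly even, 7 positive and 6 negative in each of these comparisons. In AngII + RvE1 against Sham no gene of the 7 endothelial lists was called, where 0.0238% of all tested genes were called. Lymphatic markers (6 genes) summed to 6.62 to 24.5 FPKM in AngII + RvE1, 21.7 to 277 FPKM in AngII and 10.2 to 47.2 FPKM in Sham, with AngII libraries 3, 4 and 5 at 205, 106 and 277 FPKM. Most of the AngII sum was Ccl21a, at 106 ± 105 FPKM, which was not called in AngII + RvE1 against AngII (limma adjusted p = 0.0637). Of the 4 lymphatic markers tested, 2 were called lower in AngII + RvE1 than in AngII, beside 4.31% of all tested genes. They were Flt4 (above) and Mmrn1, a multimerin gene. Mmrn1 averaged 1.05 ± 0.651 FPKM in AngII + RvE1 and 5.73 ± 2.94 FPKM in AngII (log2 difference -1.66, SE 0.34, limma adjusted p = 0.0177). Its groups did not overlap, where 5.23% of all tested genes were lower without overlap. Prox1, the defining lymphatic factor, was under the filter, at 0.536 ± 0.239 FPKM in AngII + RvE1, 1.31 ± 0.739 FPKM in AngII and 0.508 ± 0.426 FPKM in Sham. Without AngII libraries 3, 4 and 5, none of these 14 calls in endothelial lists was past the threshold, 4 in AngII against Sham and 10 in AngII + RvE1 against AngII, although each of the 14 differences kept its sign. AngII libraries enter both comparisons, so the opposite signs of one gene in the 2 are not independent.

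**Figure D5:**
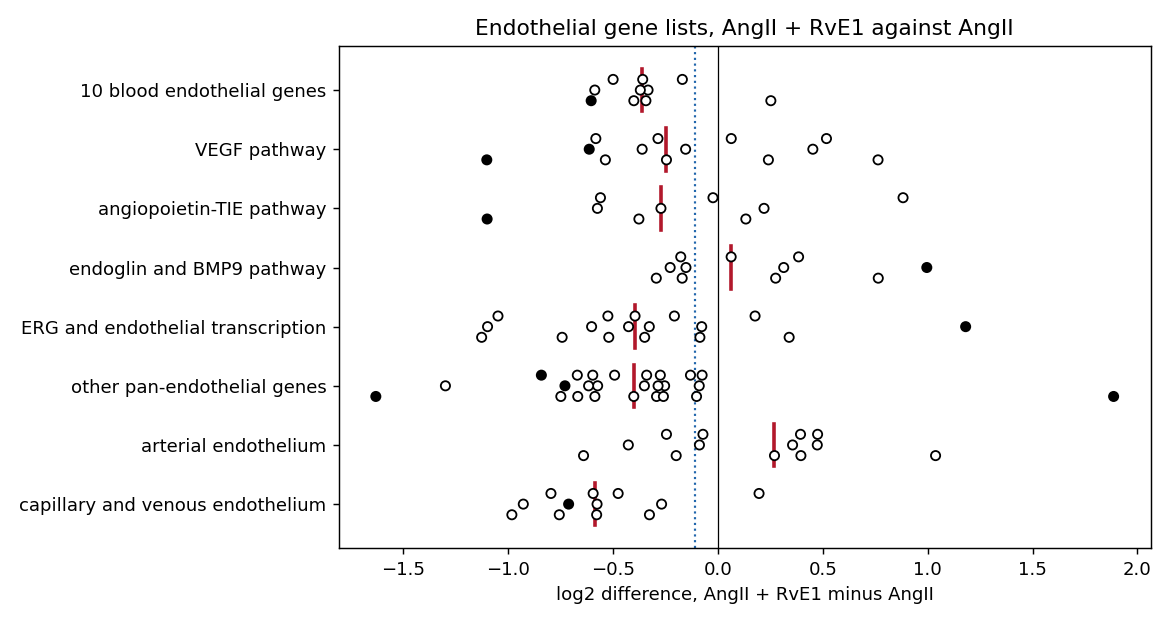
Log2 difference, AngII + RvE1 minus AngII (horizontal axis), of the 10 blood endothelial genes and of the tested genes of 7 endothelial lists (1 point a gene, called genes filled, list medians as red bars, the median of all tested genes as a dotted line at -0.11). Points of the 10 genes, of the 25 other pan-endothelial genes and of the 12 capillary and venous genes lie mostly left of 0, with medians of -0.36, -0.40 and -0.59. The arterial median lies at 0.27, with 7 arterial genes right of 0 and 6 left of it.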

How the data were processed

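RNA was taken with a column kit, and 1.3 µg went into each mRNA library, per the labels' protocols. The deposited values, taken here as FPKM, were made by the authors from reads on build mm10, per the submitters' processing notes, as 1 table with a value per gene and library. The table itself names no unit, and FPKM was inferred because the values are decimal and the library sums are unequal, and the lowest nonzero values fell with transcript length (Spearman rho -0.38 over 1424 genes with 1 annotated transcript), which shows scaling to length only weakly. Aligner, quantifier and annotation: not given in the sources used here. The unit keeps no read depth, so precision is set by the 5 libraries per group.

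Genes with at least 1 FPKM in at least 5 libraries were kept, and log2(FPKM + 1) was fitted with limma 3.58.1 (trend) in R 4.3.3, 1 mean per group over all 15 libraries, 2-sided. The added 1 pulls differences of low genes toward 0. On simulated data in which 200 genes were changed, the fit was tested first. Single genes were also compared by exact permutation (scipy 1.17.1). Coordinates and the 250-base windows come from RefSeq, GRCm38.p6, where all 34714 symbols matched. All 10 genes are described, and of each endothelial list up to 4 called genes per comparison, those of lowest adjusted p, along with a fixed set of genes and the 8 genes most like the mean of the 10. The members and lists were chosen with earlier results of these data known. Alternatives were an added value of 0.1, no filter, a filter at 5, a fit of the 2 groups in question alone, a block for replicate number, median ratio rescaling, array weights, and libraries left out.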

Additional observations from a re-analysis of the deposited data

How the results depend on the processing

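Read depth is unknown, so precision rests on 5 libraries a group. Of the 10 genes, the number called in AngII against Sham was 0 in 7 of the 8 other settings and 1 with array weights (Tie1, 0.74, adjusted p = 0.0256). In AngII + RvE1 against AngII it was 0 with no filter on low values (Kdr adjusted p = 0.0534), 0 without AngII libraries 3, 4 and 5, and 4 with array weights (Kdr, Cdh5, Flt1 and Tie1), against 1 otherwise, and 0 to 1 with single libraries left out. In AngII + RvE1 against Sham it was 0 in all settings. The number of all tested genes called depended far more on the settings. With no filter it was 151, 405 and 1 in the 3 comparisons, taken as AngII against Sham, then AngII + RvE1 against AngII, then AngII + RvE1 against Sham (400, 1074 and 3 as reported), with array weights 2821, 4469 and 17, and without AngII libraries 3, 4 and 5 it was 20, 1 and 5. Fitting only the groups compared gave 39 in the first comparison and 1 in the third, and rescaling gave 259 higher and 249 lower in the first, against 298 and 102. In the second the split was 531 higher and 543 lower, against 800 and 466 with rescaling and 1502 and 2967 with array weights. Leaving out single libraries gave 77 to 1697, 95 to 2007 and 1 to 8. The cause was not tested.

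Replicate numbers did not pair the libraries, since the same-numbered pairs' deviations correlated between -0.41 and 0.52 and a number was its own best match in 1, 0 and 1 of 5. With the replicate block the calls were 109, 433 and 1, and the number among the 10 genes stayed at 0, 1 and 0 (Kdr adjusted p = 0.0401). In the endothelial lists the block ended all 4 calls in AngII against Sham (adjusted p = 0.0542 for Hhex and 0.0564 for Svep1) and 5 of 10 in AngII + RvE1 against AngII (0.0567 for Foxc2).

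Signs turned as follows. In AngII against Sham these were Kdr at -0.023 and Erg at -0.081 with rescaling, Kdr at -0.062 and Erg at -0.15 without AngII libraries 3, 4 and 5, and Erg at -0.067 with array weights. In AngII + RvE1 against Sham they were Tek at -0.015 and Tie1 at -0.030 with array weights. In AngII + RvE1 against AngII it was Cldn5, at 0.026 with rescaling and 0.47 without AngII libraries 3, 4 and 5. With single libraries left out the ranges were -0.035 to 0.30 for Flt1, -0.13 to 0.16 for Erg and -0.091 to 0.33 for Emcn in AngII against Sham, -0.049 to 0.25 for Angpt1 and -0.25 to 0.089 for Cldn5 in AngII + RvE1 against AngII, and -0.066 to 0.35 for Pecam1, -0.29 to 0.058 for Cdh5, -0.072 to 0.17 for Tek, -0.14 to 0.17 for Tie1, -0.16 to 0.58 for Vwf and -0.24 to 0.094 for Eng in AngII + RvE1 against Sham, with Sham library 2 left out giving the lowest value of each of these 6. Calls in the endothelial lists were lost for 4 of 4 and 7 of 10 with no filter, 4 of 4 and 2 of 10 with only the groups compared, 1 of 4 and 1 of 10 with rescaling, and 0 to 4 of 4 and 0 to 8 of 10 when single libraries were left out. The median of the 10 genes with single libraries left out was 0.086 to 0.38 in AngII against Sham, -0.50 to -0.29 in AngII + RvE1 against AngII and -0.20 to 0.13 in AngII + RvE1 against Sham.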

Other observations

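The tested genes least like the mean of the 10 endothelial genes were Cep63, a centrosome gene, 1810034E14Rik and Kptn (Pearson r = -0.83, -0.79 and -0.76 over 15 libraries, given as a description). Cep63 was at 10.4, 9.81 and 10.6 FPKM on average in AngII + RvE1, AngII and Sham. Hemoglobin and Alas2 values summed to 17934 to 50528 FPKM in AngII + RvE1, 4860 to 28758 FPKM in AngII and 3417 to 12709 FPKM in Sham. By this sum every AngII + RvE1 library exceeded every Sham library, although no gene of these 3 was called. Counted by gene and not by sum, 0.825% of all tested genes were higher without overlap in that comparison.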
